A study of Homo sapiens with 6 samples.

Results

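The regions described here are the strong PAI-1 ChIP-seq peaks that were listed in both RT112 replicates and in neither UM-UC-3 replicate. A peak of RT112 replicate 1 was taken when its score was at least 10, when it overlapped a peak of RT112 replicate 2 that also had a score of at least 10, and when it overlapped no peak of either UM-UC-3 library. The score is a −log10 value of significance from the peak caller MACS2, either of p or of q, which the lists leave unnamed. This rule gave 3030 of the 96423 peaks of RT112 replicate 1, or 3.14%. The 3030 regions were selected on these scores and overlaps, so their scores, their presence in RT112 and their absence from UM-UC-3 are given as descriptions, without a test.

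RT112 and UM-UC-3 are long-established lines of human bladder cancer cells, and the labels give no treatment. RT112 keeps epithelial features in culture, whereas UM-UC-3 is more mesenchymal. Each line gave 2 ChIP libraries made from nuclear extract with an antibody to PAI-1 (clone 3F2) and 1 input library, 6 samples in all. The 4 ChIP libraries had peak lists, and the inputs were not analysed here. Each cell line stands for 1 tumour, and the labels call the 2 replicates of a line biological without saying how they were separated. Read depth is unknown, since the lists hold no counts.

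PAI-1 belongs to the serpins, which trap the protease they inhibit in a stable complex, and its targets are the tissue-type and urokinase-type plasminogen activators that turn plasminogen into plasmin. It is best known as a secreted protein of blood and extracellular matrix, where it also binds vitronectin. Here ChIP-seq of nuclear extract was used to ask where on the chromosomes it can be recovered. In such data a peak is a stretch with more read ends than its surroundings.

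The sequences of 2 of the 3 regions with the best mean rank of score over both RT112 replicates are shown first, because they carry some of the highest scores and show how unlike each other such regions can be. They are taken from GRCh37, on the forward strand, and capitals mark any of the 10 words of 6 letters that stood out most against the flanks, as described with the sequence composition. Each is the central 300 bases of its peak.
chr1:18711434-18711733: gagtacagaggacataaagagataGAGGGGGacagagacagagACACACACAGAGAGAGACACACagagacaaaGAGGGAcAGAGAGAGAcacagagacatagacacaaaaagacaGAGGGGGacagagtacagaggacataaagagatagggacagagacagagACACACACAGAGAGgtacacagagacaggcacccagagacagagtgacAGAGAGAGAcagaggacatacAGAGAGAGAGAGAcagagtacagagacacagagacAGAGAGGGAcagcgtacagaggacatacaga
chr2:114327040-114327339: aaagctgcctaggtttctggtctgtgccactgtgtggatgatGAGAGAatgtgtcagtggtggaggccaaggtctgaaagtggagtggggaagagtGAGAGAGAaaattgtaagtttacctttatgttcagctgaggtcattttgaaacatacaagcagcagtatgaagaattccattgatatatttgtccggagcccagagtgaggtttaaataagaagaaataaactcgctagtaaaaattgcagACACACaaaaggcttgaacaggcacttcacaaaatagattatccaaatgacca
The first is built of purine-rich repeats, with 96 of its 300 bases inside the marked words. It lay within 3 kb of the start of a long noncoding RNA and 6.42 kb from IGSF21, an immunoglobulin superfamily gene of neurons. It scored 62.7 in replicate 1 and 79.0 in replicate 2. The other lies between genes, 57.4 kb from RABL2A, a small GTPase gene, with scores of 66.8 and 61.4.

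The other 7 regions of the 10 best ranked were spread over 5 chromosomes, and 4 of the 10 were in or at a protein-coding gene. On chromosome 19, 39712106 to 39712496 scored 79.4 and 46.9 and lay 17.2 kb from SYCN, a gene of pancreatic zymogen granules. On chromosome 7, 100349189 to 100349533 overlapped an exon of ZAN, which encodes a sperm protein that binds the egg coat, and scored 57.1 and 53.8. On chromosome X, 49054625 to 49055141 lay in SYP, the gene of the synaptic vesicle protein synaptophysin, within 3 kb of a start site. It scored 57.2 and 49.1. On chromosome 10, 9653962 to 9654321 scored 56.6 and 44.9 at a distance of 1186 kb from CELF2, an RNA-binding protein gene. The second region on that chromosome, 73320735 to 73321154, was intronic in CDH23, a cadherin of the hair-cell tip link, and scored 55.4 and 42.4. On chromosome 15, 39345189 to 39345487 was intronic in the noncoding gene LINC02694 and scored 54.6 and 51.0. On chromosome X, 129886791 to 129887291 was intronic in ENOX2, an oxidase gene, with scores of 52.6 and 43.0. The closest UM-UC-3 peak to each of the 10 lay 2.19 to 36.5 kb away.

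Over all 3030 regions the score in replicate 1 ran from 10.02 to 79.4 with a median of 15.6, and the score in replicate 2 from 10.05 to 79.0 with a median of 13.9. Replicate 1 had the higher score in 1909 regions (63.0%), and the median ratio of the scores was 1.07. The ranks in the replicates had a Spearman correlation of 0.57 over the 3030 regions, which all passed a minimum on both axes. Most regions were only moderately above that minimum, since 894 (29.5%) had a score under 11 in at least 1 replicate and 361 (11.9%) reached 20 in both. The lower score of the 3 regions just inside the limit was 10.02, 10.02 and 10.05, and the 3 nearest regions outside it all had 9.99. Scores fell on steps: the 12 commonest values covered 71.9% of the regions in replicate 1 and 75.8% in replicate 2, and 588 regions shared the value 10.8 in replicate 2.

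**Figure D1:**
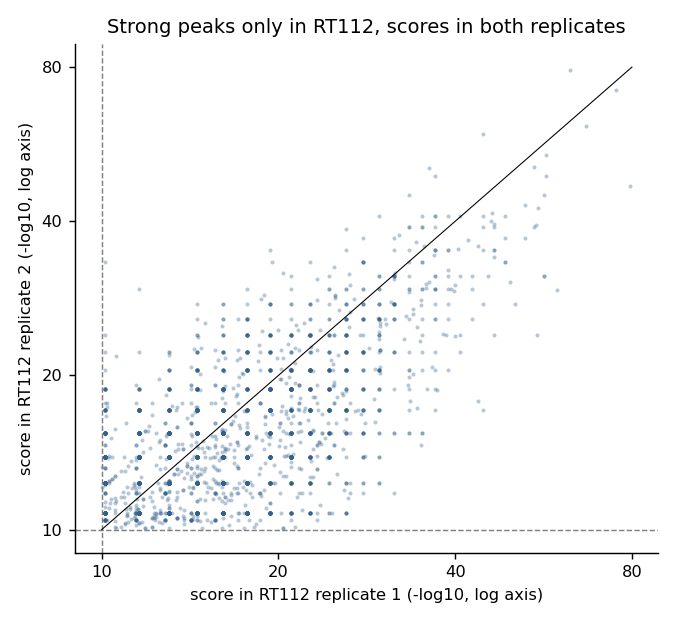
Each point is a strong RT112-only peak, with its score in RT112 replicate 1 on the horizontal and in replicate 2 on the vertical log axis (−log10 units). Dashed lines mark the minimum of 10, the black line equal scores, and the points stand in rows and columns because 71.9% and 75.8% of the regions hold 1 of the 12 commonest values of their replicate.

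The rule narrowed the list in steps. Of 9721 RT112 replicate 1 peaks with a score of at least 10, 7936 overlapped a peak of replicate 2 at any score and 3657 overlapped one with a score of at least 10. Of the 3657, 627 overlapped a UM-UC-3 peak, 374 of them in both UM-UC-3 libraries, and the remaining 3030 (82.9%) did not. Among all RT112 replicate 1 peaks, 93.0% overlapped no UM-UC-3 peak. That share fell with the score, from 94.9% at scores of 2 to 3 to 87.7% at 10 to 20 and 78.7% at 20 or more, so RT112-only peaks were a smaller share of the strong peaks than of the weak ones. The same rule applied to UM-UC-3 gave 5554 strong peaks without an RT112 peak, 87.3% of 6365. Absence from UM-UC-3 means that no peak was listed, and the lowest listed score in those libraries was 2.00 to 2.01.

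The regions were wider at the median than the whole list and lay far apart. Their width in replicate 1 had a median of 337 bp, with the middle 50% between 285 and 421 bp and a maximum of 1358 bp. All replicate 1 peaks had a median of 294 bp, the 627 shared strong peaks 358 bp and the strong UM-UC-3-only peaks 311.5 bp. Both ends lay within 1 bp of the ends of the replicate 2 peak in 1166 regions (38.5%), and were identical in 556 (18.3%). Other overlapping peaks of the RT112 replicates had both ends within 1 bp in 45.7% of 33815 cases. Between midpoints, the next region on the chromosome lay at a median distance of 538 kb, and 64 of these gaps (2.13%) were under 10 kb. The closest peak of either UM-UC-3 library lay at a median distance of 6.06 kb. Such a peak was within 1 kb of 333 regions (10.99%) and within 10 kb of 2026 (66.9%). The UM-UC-3 lists held 109287 and 114094 peaks, so a shorter distance to them follows from their size. The same distances are not given here for all RT112 replicate 1 peaks.

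The RT112-only regions lay mostly in introns and between genes, at shares close to those of the whole list. Introns held 1353 regions (44.7%, 95% Clopper-Pearson interval 42.9 to 46.4), distal intergenic sequence 1028 (33.9%) and promoters, meaning 3 kb on either side of the start of any transcript, 477 (15.7%, 14.5 to 17.1). Exons outside the UTRs and promoters held 69 (2.28%), the 3 kb downstream of genes 60 (1.98%), 3′ UTRs 41 (1.35%) and 5′ UTRs 2 (0.0660%). Among all RT112 replicate 1 peaks the shares were 45.3% for introns, 34.1% for distal intergenic sequence and 15.6% for promoters, and among strong UM-UC-3-only peaks they were 44.9, 34.4 and 15.9%. Every interval of the 3030 regions included the value of the whole list, of which the regions are a part. Windows of the same median width placed every 10 kb on the reference were in promoters in 19.3% of 283559 cases, against 15.7% of the regions. The intervals cover counting error only and treat regions as independent, although all come from RT112. These shares are a description and no test of a difference.

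Few of the regions were at the start of a protein-coding gene. Within 500 bp of such a start were 66 regions (2.18%), at 65 genes, against 1.88% of all replicate 1 peaks and 1.57% of strong UM-UC-3-only peaks. The best ranked of them, chosen after the values were seen, lay at SRRM4, a splicing regulator of neurons, with scores of 45.6 and 31.3 in replicates 1 and 2. At ZNF133, a zinc finger gene, the scores were 37.02 and 35.2, and at the olfactory receptor gene OR4D1 they were 37.02 and 29.5. A region of 1030 bp at PDHA1, which encodes a subunit of the pyruvate dehydrogenase complex, scored 29.7 and 40.96, and one at FOXP3, the transcription factor of regulatory T cells and sixth in rank, scored 29.5 and 25.9. Coding exons were overlapped by 98 regions (3.23%), against 2.51% of all replicate 1 peaks.

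Of 20155 protein-coding genes, 1271 (6.31%) held a region in the gene or within 3 kb, and 1390 regions (45.9%) were so placed, against 48.7% of the windows placed every 10 kb. Most of these genes, 1096, had a single region, 175 had 2 or more and 45 had 3 or more. They were long genes, with a median length of 138 kb, while the median of every protein-coding gene together was 27.2 kb. The share of genes with a region rose from 0.857% of those under 10 kb to 5.29% at 30 to 100 kb, 16.03% at 100 to 300 kb and 40.4% over 300 kb. Regions placed without regard to genes would also fall more often in longer genes. Gene length was not compared with other peaks or with the windows, so whether the trend is particular to these regions is not known.

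The genes with the most regions were also very long, and the same limit applies to them. MACROD2, an ADP-ribosylhydrolase gene of 2058 kb on chromosome 20, held 9 regions, and PTPRT, a receptor tyrosine phosphatase gene on the same chromosome, held 8. RBFOX1, a neuronal splicing regulator, and SLC24A3, a sodium-calcium exchanger gene, held 7 each. Next were ZFPM2, a cofactor of GATA factors, and AGBL4, a tubulin-modifying carboxypeptidase gene, with 5 each. TG (thyroglobulin), ANO2 (a chloride channel), CDH13 (T-cadherin), RARB (a retinoic acid receptor), DPP6 (a potassium channel subunit) and the receptor kinase gene ALK had 4 each. Per 100 kb of gene, TG (1.49 regions) and SLC24A3 (1.37) had the most and RBFOX1 (0.283) the fewest of these 12.

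No region in these 12 genes was among the very strongest. The highest score was 35.2 in replicate 1, in RBFOX1, and 27.6 in replicate 2, in PTPRT and in ANO2. In PTPRT they ran from 11.6 to 33.3 in replicate 1 with a median of 23.7, and from 10.8 to 27.6 in replicate 2 with a median of 15.9. In MACROD2 they ran from 10.1 to 29.7 (median 17.7) and from 10.8 to 22.3 (median 15.5). In ALK no region exceeded 13.04 in replicate 1, the lowest maximum of the 12 genes, or 17.1 in replicate 2. In replicate 2 the lowest maximum was 12.3, in AGBL4.

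In several of these genes the whole peak lists, weak peaks included, were also denser in RT112. The genes were chosen for their RT112-only regions, which are among the RT112 peaks counted, so a higher density in RT112 is favoured by the choice and is a description. Per 1000 peaks of a library, PTPRT held 1.06 and 1.21 in the RT112 replicates against 0.357 and 0.324 in UM-UC-3. For SLC24A3 the values were 0.560 and 0.565 against 0.128 and 0.158, and for MACROD2 they were 1.20 and 1.26 against 0.576 and 0.605. TG had 0.322 and 0.415 in RT112 against 0.101 and 0.123 in UM-UC-3, and CDH13 had 1.04 and 1.096 against 0.512 and 0.465. AGBL4 was no denser in RT112, with 0.664 and 0.731 against 0.686 and 0.771, so that the RT112 and UM-UC-3 libraries overlapped there.

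Genes of the bladder, the plasminogen system and cell adhesion were looked up next, beside the 6.31% of all protein-coding genes that held a region. Of 20 genes of the plasminogen system 1 did: PLAT, which encodes tissue plasminogen activator, a target of PAI-1 itself, had a region at chromosome 8, 42046173 to 42046423, with scores of 21.0 and 17.3. It lay within 3 kb of the start of a PLAT transcript, and PLAT held 1 peak in each of the 4 libraries. Of 22 luminal urothelial genes only UPK2, a uroplakin of the urothelial plaque, held a region (scores 15.7 and 14.1). It lay at 118809363 to 118809824, in an intron of the UPK2 model used here, which spans 33.4 kb (118795873 to 118829269). Whether shorter UPK2 transcripts also hold it was not tested. Of 18 basal genes 3 held a region. Among these were DSG3, a desmosomal cadherin of stratified epithelium (21.0 and 18.8), and TP63, the master regulator of basal cells (14.6 and 10.8). Per 1000 peaks of any score, TP63 was denser in UM-UC-3, with 0.0830 and 0.0664 in the RT112 replicates against 0.156 and 0.210. DSG3 had 0.0207 and 0.0332 in RT112 against 0 and 0.00876 in UM-UC-3. Of 20 mesenchymal genes 0 held a region.

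Of 38 genes recurrently altered in bladder cancer 4 held a region each. E2F3, a cell cycle transcription factor, had one in its 3′ UTR with scores of 22.7 and 10.8. ARID1A, a subunit of the SWI/SNF remodeller, had an intronic one (17.7 and 15.5), as did the cohesin gene STAG2 (13.04 and 18.8), while that within the retinoblastoma gene RB1 lay in a promoter window of RCBTB2 (14.6 and 10.5). Of 23 cadherin genes 6 held 10 regions in all, the strongest in CDH23. CDH13 held 4, of which the highest scored 26.1 and 20.5, CDH18 held 2, and CDH5, CDH22 and CDH9 held 1 each. At the vascular cadherin gene CDH5, annotated on the forward strand from 66400593 to 66438687, the region started at 66414731, inside the gene. It lay within 3 kb of the start of some annotated transcript, not necessarily one of CDH5, and scored 24.4 and 18.8. Per 1000 peaks of any score, CDH5, CDH9 and CDH18 were denser in both UM-UC-3 libraries, and CDH13, CDH22 and CDH23 in both RT112 libraries. Of 12 genes with ChIP-PCR primers, DOCK2, an activator of RAC GTPases in leukocytes, was the only one with a region (16.1 and 12.3). Per 1000 peaks of any score, DOCK2 had 0.187 and 0.216 in the RT112 replicates against 0.284 and 0.272 in UM-UC-3.

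These lists differ in gene length. Averaged over all genes of the same length classes, the share with a region would be 4.13% for the luminal list (observed 4.55%), 4.84% for the basal list (16.7%), 6.48% for the mesenchymal list (0%), 3.84% for the plasminogen list (5%), 8.41% for the altered genes (10.5%), 9.30% for the ChIP-PCR genes (8.33%) and 18.3% for the cadherins (26.1%). With counts of 0 to 6 genes per list, these values are descriptions. The published gene list for RT112 was chosen on these same libraries and is no independent evidence. Of its 457 genes that matched the annotation, 60 (13.1%) held a region, against 11.1% in all genes of the same length classes. EFHC2, CLSTN2 and FLI1 held 3 each, the most of that list.

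The regions were unevenly spread over chromosomes. The reference held 0.979 of them per Mb, and chromosome 20 held 185, or 2.94 per Mb, the highest density. Chromosome 8 (245 regions, 1.67 per Mb), chromosome X (1.28), chromosome 18 (1.27) and chromosome 16 (1.21) followed, and chromosome 4 had the lowest density outside the Y chromosome (85 regions, 0.445 per Mb). Chromosome 20 thus held 6.11% of the RT112-only regions. It held 3.54 and 3.804% of all peaks in the RT112 replicates, 1.96 and 1.91% in the UM-UC-3 replicates and 1.87% of the strong UM-UC-3-only peaks. Chromosome 8 held 8.09% of the regions, against 6.33 and 6.48% of all RT112 peaks and 5.10 and 5.12% of all UM-UC-3 peaks. On chromosome 5 the order was turned, with 6.01% of the regions, 6.76 and 6.75% of RT112 peaks and 8.20 and 8.18% of UM-UC-3 peaks. On chromosome 20, 5.42% of the RT112 replicate 1 peaks met the rule, on chromosome 22 4.81% and on chromosome 4 2.25%, against 3.14% in all.

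**Figure D2:**
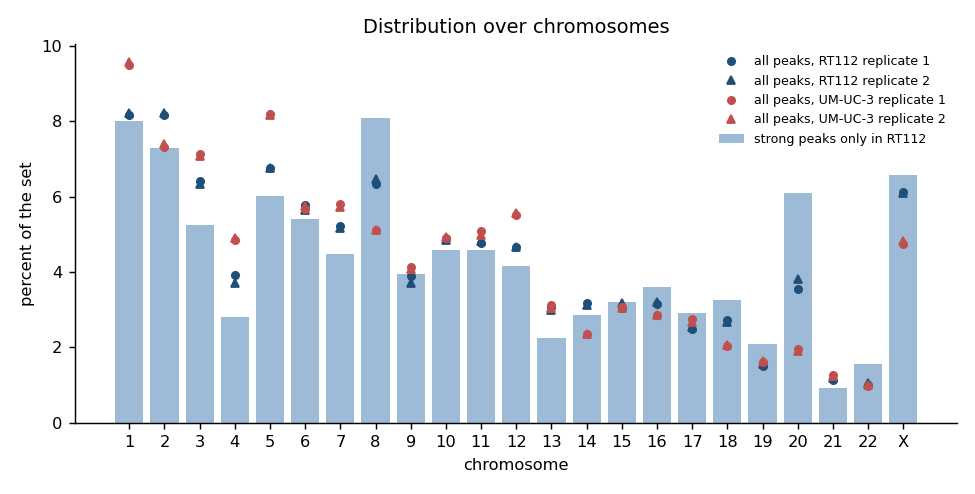
Bars show the percent of the strong RT112-only peaks on each chromosome from 1 to 22 and X, and symbols the percent of all peaks in each of the 4 libraries. On chromosomes 8 and 20 the bars (8.09 and 6.11%) stand above both RT112 libraries, which stand above both UM-UC-3 libraries.

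In bins of 1 Mb, 1694 of 3053 bins on chromosomes 1 to 22 and X held at least 1 region, with a mean of 0.992 per bin. Most occupied bins, 918, had a single region and 453 had 2. Bins with at least 5 times the mean, which were those with 5 or more regions, numbered 56 (1.83% of bins) and held 325 regions (10.7%). Of the 56, 14 were on chromosome 20, 9 on chromosome 8, and 4 each on chromosomes 1, 16 and X.

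The densest bin was 41000001 to 42000000 on chromosome 20, with 13 regions, 8 of them in PTPRT. It held 99 and 73 peaks of any score in the RT112 replicates and 43 and 41 in UM-UC-3, or 3.13 and 3.70 times the mean of the RT112 lists and 1.20 and 1.097 times that of the UM-UC-3 lists. The bin at 133000001 to 134000000 on chromosome 8 had 9 regions, with 4 in TG, 3 in the potassium channel gene KCNQ3 and 2 in TMEM71. Here the UM-UC-3 lists were also above their mean, at 1.96 and 1.98 times. A run of 3 bins from 17000001 to 20000000 on chromosome 20 held 7, 7 and 8 regions. The genes with a region there were PCSK2, a prohormone convertase (3), DSTN, an actin-depolymerising factor (1), RRBP1 (1), DTD1, which edits misacylated tRNA (2), ZNF133 (1), SLC24A3 (7) and RIN2 (1), and the gene ENSG00000284776 (1).

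The other 5 of the 10 fullest bins held 7 regions each. Chromosome 22, 27000001 to 28000000, had 1 of its 7 at the lens crystallin gene CRYBB1, and chromosome 1, 157000001 to 158000000, had 1 at CD5L, a macrophage gene. Chromosome 8, 140000001 to 141000000, had none at a protein-coding gene. On chromosome X, 70000001 to 71000000, 3 lay at MED12, a Mediator subunit, and 1 each at ITGB1BP2 and TEX11. Chromosome 12, 114000001 to 115000000, had 1 at RBM19 and also held 6 strong UM-UC-3-only peaks, the most of the 10 bins.

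Whether the weaker peaks of the libraries also gathered in the 56 dense bins was then compared, since no peak with a score under 10 was among the regions. In RT112, 3.31% of 86702 weak peaks lay in them in replicate 1 and 3.56% of 54959 in replicate 2, a mean of 3.44% ± 0.170 (SD, n = 2). The UM-UC-3 replicates had 2.30% of 99280 and 2.23% of 103625, a mean of 2.26% ± 0.0483 (SD, n = 2). Both RT112 libraries were above both UM-UC-3 libraries, by 1.17 percentage points on average. The bins themselves were 1.83% of all bins, so the weak peaks of UM-UC-3 also exceeded an even spread there. The bins were located with strong peaks of the same RT112 libraries that had no UM-UC-3 peak of any score, a choice that favours a lower share in UM-UC-3, so the values are a description with no test.

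Chromosome 20 held the largest part of this gap. The 14 dense bins of that chromosome held 0.971 and 1.09% of weak RT112 peaks and 0.482 and 0.479% of weak UM-UC-3 peaks. The 9 bins on chromosome 8 held 0.578 and 0.644% against 0.413 and 0.401%. The 33 bins elsewhere held 1.77 and 1.82% against 1.40 and 1.35%, a difference of 0.419 percentage points.

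**Figure D3:**
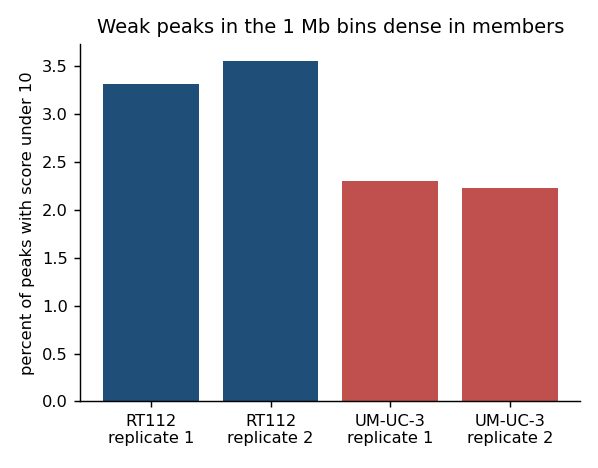
Bars give, for each library, the percent of its peaks with a score under 10 that lie in the 56 bins of 1 Mb with 5 or more strong RT112-only peaks. Both RT112 libraries (3.31 and 3.56%) stand above both UM-UC-3 libraries (2.30 and 2.23%).

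Large gaps in the assembly were not a common neighbour. Within 100 kb of a run of at least 10 kb of undetermined bases lay 31 regions (1.02%), against 1.09% of all replicate 1 peaks and 2.39% of the shared strong peaks.

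The DNA of the RT112-only regions was slightly richer in G and C than its surroundings and poor in CpG. In windows of 300 bp on the midpoint the median was 44%, with the middle 50% between 39.7 and 48.0%. It was 42.3% in flanking windows 1 kb to either side, 42.0% in all replicate 1 peaks, 42.0% in strong UM-UC-3-only peaks and 44.3% in the 627 shared strong peaks. Extremes were rarer: 90.5% of the regions had 35 to 55% G or C, against 76.6% of the flanks. The share was 90.9% in the shared strong peaks, 83.7% in strong UM-UC-3-only peaks and 82.7% in all replicate 1 peaks. In steps of 250 bp, G and C rose from 41.8% at 2 kb upstream to 43.8% at the midpoint and fell to 42.0% at 2 kb downstream. The CpG observed-to-expected ratio was 0.172 in the regions and 0.204 in their flanks. It was 0.172 in the shared strong peaks, 0.182 in strong UM-UC-3-only peaks and 0.184 in all replicate 1 peaks.

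Purine and pyrimidine were unequally divided between the strands in part of the regions. An excess of at least 30% of purines over pyrimidines, or the reverse, was found in 12.1% of the regions, 4.03% of their flanks, 4.94% of all replicate 1 peaks, 9.07% of strong UM-UC-3-only peaks and 21.2% of the shared strong peaks, so the regions lay between the whole list and the shared peaks. A GA repeat of at least 6 units was present in 2.08% of regions and 0.957% of flanks, and a CA repeat of the same length in 3.07 and 1.49%. The shared strong peaks had 2.55% for GA and 3.67% for CA repeats, and all replicate 1 peaks 1.01 and 1.58%. Runs of 12 A or T were rarer in the regions, at 1.91% against 5.69% in the flanks.

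The words of 6 letters, read on both strands, with the largest ratio to the flanks were mostly runs of purines on 1 strand. CACCCC was in 19.6% of regions and 12.6% of flanks, a ratio of 1.56. GAGAGA was in 33.2 and 21.4%, and the overlapping word AGAGAG in 34.9 and 23.9%. CTCCCC (25.1 and 16.7%), CTCTCC (29.6 and 19.8%), AGGGGG (15.2 and 10.2%), ACCCCC (12.7 and 8.76%), ACACAC (24.95 and 17.3%), GAGGGA (28.2 and 19.6%) and CCCCTC (21.2 and 14.7%) completed the 10. Among them CACCCC, like ACCCCC and ACACAC, mixes purines and pyrimidines. For all RT112 replicate 1 peaks the shares were lower, 13.7% for CACCCC and 25.5% for GAGAGA, and for strong UM-UC-3-only peaks they lay between, at 16.1 and 28.1%. The 627 shared strong peaks had 18.7% for CACCCC and 37.3% for GAGAGA, the latter above the RT112-only regions.

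Short letter strings of known factor motifs differed from the flanks in part. On both strands, the AP-1 string TGACTCA was in 4.95% of regions, 5.07% of flanks and 4.87% of all replicate 1 peaks. The GATA string AGATAA was in 18.4, 19.8 and 20.3%, the TEAD string GGAATG in 17.4, 16.6 and 17.4%, and the forkhead string TGTTTAC in 4.32, 4.65 and 4.48%. The RUNX string TGTGGT was higher in the regions (23.4, 19.5 and 21.2%) and the TATA string TATAAA lower (18.98, 25.4 and 24.2%). The CCAAT string was in 41.2, 37.2 and 40.7%, and the nuclear receptor string AGGTCA in 14.98, 18.7 and 18.7%, below the flanks and the whole list. In the shared strong peaks TGTGGT was in 18.7%, TATAAA in 18.3% and AGGTCA in 14.8%. Strong UM-UC-3-only peaks had 22.1, 23.4 and 17.7%. The low shares of TATAAA and AGGTCA were thus also found in the shared strong peaks. The SP/KLF string GGGCGG was in 2.81, 3.88 and 2.70%. These counts describe letters and not occupied sites.

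Among words in at least 5% of the flanks, 4 that all contain CG had the lowest ratios of regions to flanks, CTCGGC (0.429), CAGGCG (0.507), AGGCCG (0.513) and AGGCGG (0.521). The next, at 0.545, was CTGAAG, without CG, in 11.4% of regions and 21.0% of flanks, and it stood at fixed distances from the ends of the regions. This was noticed after the words had been counted. CTGAAG, or CTTCAG on the other strand, is the recognition sequence of AcuI, a type IIS restriction enzyme that cuts at a fixed distance to the side of its site. It occurred 2.41 times per 10 kb inside the regions, leaving out the 20 bases next to each end, and 8.29 times per 10 kb at 100 to 1000 bases outside. For all RT112 replicate 1 peaks the values were 1.90 and 7.95, and for strong UM-UC-3-only peaks 2.62 and 7.67. In 5 regions the word is shown in capitals with the bases around the peak end. Each sequence is read into the peak from 30 bases outside to 25 bases inside, and the first 2 show starts on the forward strand while the last 3 show ends on the reverse strand.
chr11:69390001-69390055: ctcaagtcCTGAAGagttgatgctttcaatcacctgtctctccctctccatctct
chr10:124128532-124128586: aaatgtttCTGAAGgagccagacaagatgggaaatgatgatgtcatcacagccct
chr7:100349509-100349563: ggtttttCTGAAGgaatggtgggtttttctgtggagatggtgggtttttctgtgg
chr21:41384535-41384589: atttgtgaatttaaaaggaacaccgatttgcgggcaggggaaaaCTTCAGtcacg
chr3:148969038-148969092: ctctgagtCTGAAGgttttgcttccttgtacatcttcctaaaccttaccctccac
In the first 2 sequences 16 bases separate the word from the peak, and in that from chromosome 7 there are 17. In the sequence from chromosome 21 it lies inside, on the other strand, after 14 bases, and in that from chromosome 3 again 16 bases outside. The sequence from chromosome 7 is the end of the ZAN region named above.

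Over the 6060 ends of the 3030 regions, the word stood outside and pointed in with 16 bases between it and the end at 143 ends, with 17 at 71 and with 18 at 21. Inside, on the other strand, 14 bases lay between at 182 ends, 15 at 54 and 13 at 20. No other distance up to 40 bases was found at more than 12 ends. Together these 6 positions held the word at 8.09% of ends, against 0.241% at the same positions moved outwards by 100 to 500 bases. At least 1 such end was found in 468 regions (15.4%), 252 at the start and 238 at the end, and both ends in 22. In all peaks the share of regions with such an end was 15.8 and 14.1% in the RT112 replicates and 13.8% in each UM-UC-3 replicate, and in strong UM-UC-3-only peaks it was 13.6%. The distances were thus a property of all 4 lists. The methods read here name no AcuI digestion, and the part of such a cut in the position of these ends was not tested.

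**Figure D4:**
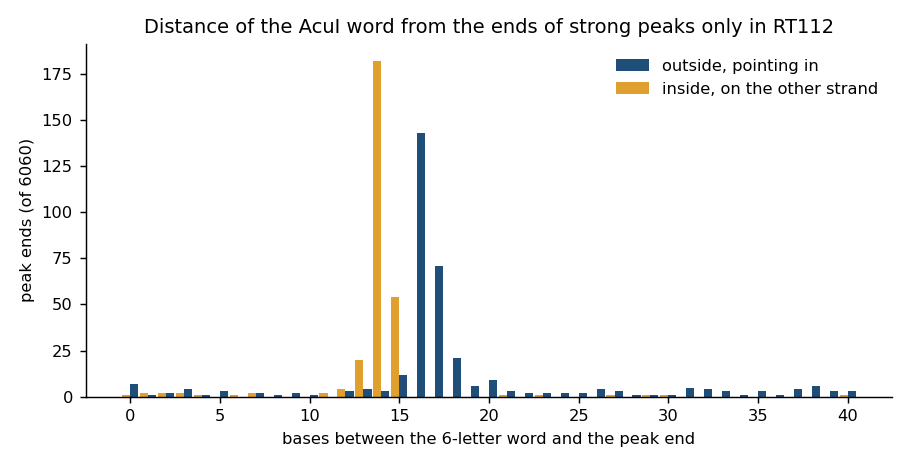
Bars count the ends of strong RT112-only peaks (6060 ends) with the AcuI word at each distance, in bases between the word and the peak end, outside the peak and pointing in or inside on the other strand. The counts gather at 14 bases inside (182 ends) and 16 bases outside (143 ends).

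The letters outside the ends were also unequal. Read towards the peak, the bases 8 to 13 outside an end were G or T in 73.4% of cases over the 6060 ends. The share was 51.1% at positions 100 bases further out and 56.2% at the same positions inside. At 8 bases outside, G made up 44.2%, T 31.7% and C 8.05%, and at 7 bases outside the sum of G and T dropped from 75.9 to 55.3%. The end of the ZAN region printed above has GGTGGG at these positions. At 5 or 6 of the 6 positions, 51.5% of ends had G or T, against 15.1% further out. The share of such ends was 41.3% in all RT112 replicate 1 peaks, 51.3% in the shared strong peaks and 49.3% in strong UM-UC-3-only peaks. Among the RT112-only regions, 2315 (76.4%) had at least 1 such end and 804 (26.5%) such ends on both sides. Neither this feature nor the AcuI word was found at either end of 538 regions (17.8%). The counts per region are not given here for other peaks.

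The same excess was present in every list. It was 67.9 and 68.8% in all peaks of the RT112 replicates, 67.2% in each UM-UC-3 replicate, 72.6% in strong UM-UC-3-only peaks and 73.4% in the 627 shared strong peaks. It rose with the score among RT112 replicate 1 peaks, from a mean of 64.4% at scores of 2 to 3 to 70.3% at 5 to 10 and 73.2% at 20 or more. The RT112-only regions thus had the value of other strong peaks, and their higher share than the whole list moved with the score. How this excess arose was not tested.

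**Figure D5:**
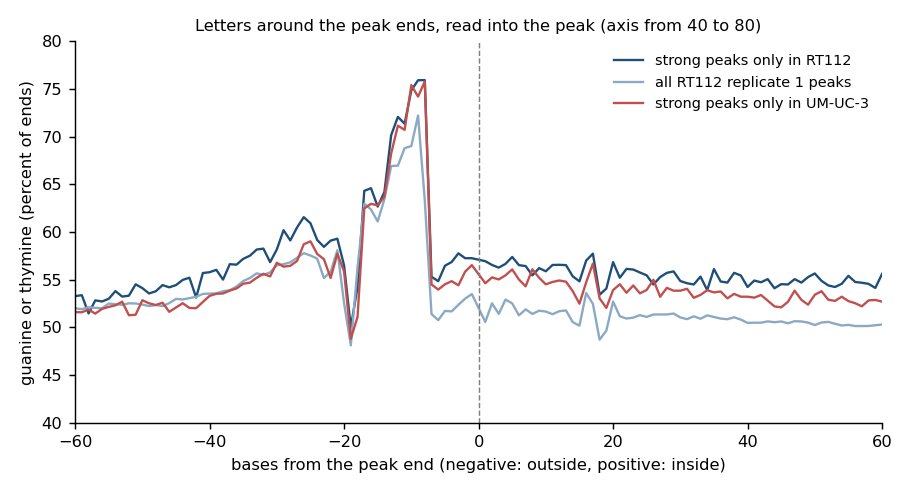
Lines give the percent of peak ends with G or T at each base from 60 outside (negative) to 60 inside (positive), read into the peak, for the strong RT112-only peaks, all RT112 replicate 1 peaks and the strong UM-UC-3-only peaks. All 3 lines peak 8 to 13 bases outside the end, where the RT112-only regions average 73.4%.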

How the data were processed

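Per the labels and the study's methods, the authors sequenced 100 bp read pairs, mapped them to hg19 with Bowtie 1.1.1, removed duplicates with Picard and called peaks with MACS2 2.1.0.20140616, 1 list per ChIP library. The submitters' processing notes also name Trimmomatic and FastQC. Each deposited list gives intervals and a −log10 score by the authors. Whether it comes from p or q values, and whether input was the control, is not given in the sources used here. Pooling of replicates is not stated.

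Identical intervals were counted once with the highest score, and overlap meant at least 1 bp. Starts were read as counted from 1, since only then were the distances of words from starts and ends equal; this was chosen after seeing the data. Coordinates are as deposited, on hg19, read against GRCh37. Gene models were GENCODE 44 mapped to that build. Each region took the first location it met, from promoter through UTRs, other exons, introns and the downstream 3 kb to distal intergenic. Bins were assigned by midpoint. Flanks were windows of 300 bp, 1 kb to either side.

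Groups came from the labels. The exact permutation test planned for weak peaks in dense bins is not reported, because the rule used the weak UM-UC-3 peaks; no test is reported. The rule, the gene lists, the motifs and the tests were chosen with earlier results of these data known. Genes and regions named were the 10 best by mean rank of score, the 10 fullest bins, the 12 genes with most regions, listed genes with a region, and the 10 words of 6 letters with the highest ratio to flanks among those in at least 5% of regions; others are said to be chosen later. Some items that these rules select are not reported here. Alternatives covered the score minimum, overlap, base replicate, distance to UM-UC-3 peaks, bins, gene models and leaving out each library. Numbers were computed with Python 3.11.15, numpy 2.4.6, pandas 2.3.3, scipy 1.17.1, pysam 0.24.0 and matplotlib 3.10.9. The rule was tested on simulated lists.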

Additional observations from a re-analysis of the deposited data

How the results depend on the processing

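The number of regions depended on the score minimum, with 13293 at 5, 958 at 15 and 361 at 20, and on the distance to UM-UC-3 peaks, with 1004 when none lay within 10 kb. Leaving out 1 library moved it between 3156 and 8427, the latter without RT112 replicate 2, when a strong score in replicate 1 alone sufficed. Genes with a region numbered 3841, 460 and 176 at the minimums of 5, 15 and 20, and 500 without UM-UC-3 peaks within 10 kb, and between 1306 and 2731 when a library was left out, again highest without RT112 replicate 2. The promoter share was 17.7% at a minimum of 20 and 17.6% without UM-UC-3 peaks within 10 kb, and by construction lower with protein-coding genes only (7.89%) or promoters of 1 kb (7.23%). The share in dense bins was the least stable value, because the limit of 5 times the mean falls on whole counts. It was 0.166%, 39.5% and 100% at minimums of 5, 15 and 20, where at 20 every bin with 1 region counts as dense. It was 9.17% with reciprocal overlap, 8.82 and 38.4% without UM-UC-3 peaks within 1 and 10 kb, 17.9 and 4.06% in bins of 500 kb and 2 Mb, 8.65% in bins moved by 500 kb, and 1.12 to 6.40% without a library, lowest without RT112 replicate 2 and 3.44% without RT112 replicate 1. Without UM-UC-3 replicate 1 or 2 it was 6.05 or 6.40%. Median GC moved only to 43.3% at a minimum of 5, 44.3% at 15 and at 20, and 44.1% over whole peaks, and was 43.3 to 44% without a library. Starts counted from 0, added after seeing the data, gave the same 3030 regions.

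The difference in weak peaks is a description, since the choice of bins by strong RT112 peaks without UM-UC-3 peaks favours a positive sign under every alternative. It was 1.03 percentage points with weak peaks under 5, 3.08 with dense bins at 3 times the mean, 0.419 outside chromosomes 8 and 20, and 1.05 to 1.29 without a library. With the replicate number as a replicate block it was 1.17, and the labels do not tie equal numbers of the cell lines together. Since the depth of each library is unknown, a region without a listed UM-UC-3 peak may hold enrichment below that list's limit.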
